A study of Mus musculus with 8 samples.

Results

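The genes described here encode the non-collagen part of the interstitial matrix: its adhesive and matricellular glycoproteins, the proteins of elastic fibres and microfibrils, the latent TGF-beta binding proteins, the proteoglycans, and the enzymes and enhancers that process and crosslink collagen and elastin. The list holds 42 genes, chosen by symbol from knowledge of the matrix and with earlier results of these data known. Shares of the list set beside those of all genes therefore only describe it. Each of the 42 matched 1 row among the 45706 gene rows of the count table. RNA was sequenced from whole livers of C57BL/6 mice, 4 with the genotype label HuR KO and 4 with the label HuR WT, with 1 library for each mouse. Elavl1 encodes HuR, which binds RNA. The sources used here do not give the deleted exons, the cells in which they were deleted, or the age and sex of the mice. No treatment is named for either genotype.

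Matrix glycoproteins and proteoglycans are secreted into the space between cells, where they hold collagen fibrils and elastic fibres together and store growth factors. Elastin is deposited onto microfibrils with the help of fibulins, and lysyl oxidases then join the fibres by oxidising lysines. Small leucine-rich proteoglycans such as decorin and biglycan coat collagen fibrils, and latent TGF-beta binding proteins tether the inactive form of that cytokine to the matrix. In the liver most of this matrix lies around portal tracts, central veins and the capsule and comes from stellate cells, portal fibroblasts and other mesenchymal cells, while hepatocytes secrete plasma fibronectin.

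Each library held between 18649618 and 31249286 counts assigned to genes. Elavl1 itself was not reduced, with 49.4, 56.0, 49.1 and 45.6 CPM (counts scaled by library size) in KO replicates 1 to 4 and 32.7, 45.7, 42.9 and 46.6 CPM in WT replicates 1 to 4 (log2 fold change 0.25, SE 0.11, edgeR quasi-likelihood test, adjusted p = 0.258). Since the gene count does not check the genotype labels, all directions below are those of the libraries labelled KO relative to the libraries labelled WT. WT replicate 3 stood apart from its group: over all tested genes its average root-mean-square difference in log2 CPM was 0.586 to the KO libraries and 0.597 to the other WT libraries, and KO replicate 4 was nearest to it. The animal numbers in the titles form a series from 98 to 100 and a series of 4-digit numbers. The first holds 2 libraries labelled KO (replicates 3 and 4) and 1 labelled WT (replicate 3, the library that stood apart). The second holds 2 and 3, and what separates the series is not stated.

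Of the 39 matrix genes with enough counts to test, the libraries labelled KO had 9 at a higher and 0 at a lower level, at an adjusted p under 0.05 over all 14645 genes tested. That is 23.1% of the tested members, beside 2.32% of all genes called higher and 1.37% called lower. Members lower at an unadjusted p under 0.05 also numbered 0, as did members called lower by DESeq2 or limma-voom. The 9 were Bgn, Prelp and Lum among the proteoglycans, Eln, Fbln5 and Emilin1 of elastic fibres, Sparc of the matricellular proteins, the latent TGF-beta binding protein gene Ltbp3 and the crosslinking enzyme gene Loxl1, with fold changes between 1.40 and 2.64. The median log2 fold change was 0.53 over the tested members and −0.0046 over all tested genes, and 36 of 39 members (92.3%) had a fold change above 1, against 49.2% of all genes. In whole liver, more cells of a type and more RNA per cell cannot be told apart, nor can fewer cells and less RNA per cell.

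Further members lay above the libraries labelled WT without passing the threshold. For 18 of 39 members (46.2%) every library labelled KO lay above every library labelled WT, beside 6.19% of all genes, and 10 of these 18 were not called. An unadjusted p under 0.05 was reached by 22 members (56.4%), all higher in the libraries labelled KO, beside 9.2% of all genes. The threshold fell between Emilin1, called at an adjusted p of 0.0453, and Thbs2, not called at 0.0522. Tnxb at 0.0616 and Fbn1 at 0.066 came next. Without WT replicate 3 the called members numbered 12, the additional ones being Thbs2, Tnxb and Mfap4, and the median log2 fold change was 0.51. The count was lower without other libraries: it was 2 without KO replicate 4 or WT replicate 2, 3 without KO replicate 1, 4 without KO replicate 3 or WT replicate 1, and 6 without WT replicate 4. Bgn and Sparc were called in each of these fits. The median log2 difference of the tested members was 0.43 within the 4-digit series and 0.56 within the series from 98 to 100. The latter rests on 1 library labelled WT, replicate 3. Each of the 9 called genes was above 0 within both, but they were called from these same libraries, so their signs are no separate support.

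**Figure D1:**
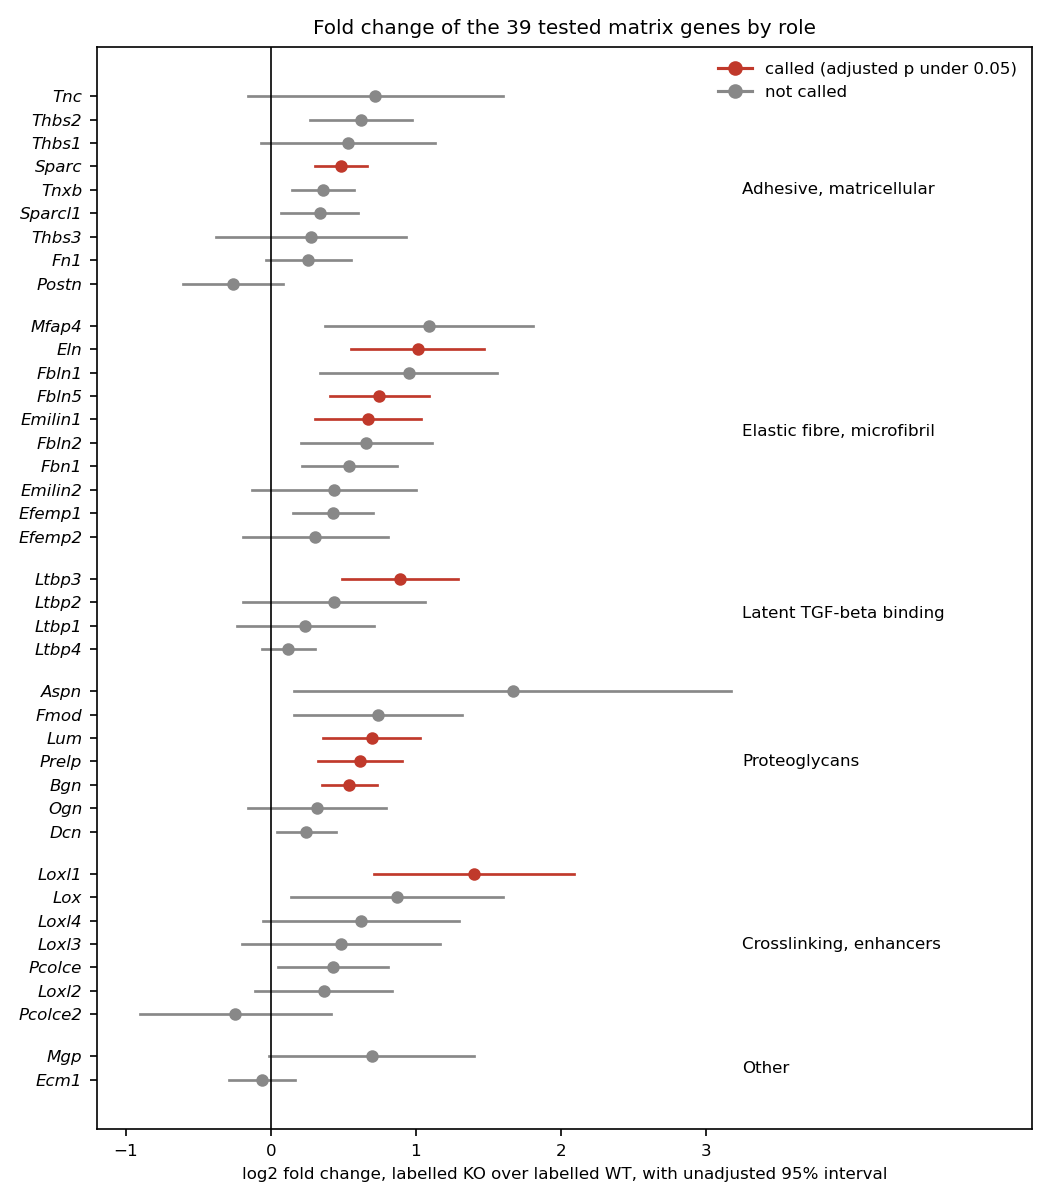
log2 fold change of the libraries labelled KO over those labelled WT for the 39 tested matrix genes, grouped by role, with bars for the unadjusted 95% interval. The 9 called genes, in red, lie between 0.49 and 1.40, and 3 genes (Postn, Pcolce2 and Ecm1) lie below 0.

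Promoter windows are shown for 4 called genes: Bgn and Sparc, which were called in every fit that left out 1 library, and Fbln5 and Ltbp3, whose windows hold a searched motif. Windows run from 250 bases before to 50 bases after a RefSeq gene start (GRCm38.p6) and were given for 29 of the 42 members and 6 of the 9 called genes. Fbln5 has a pair of windows, of which the upstream is shown. The windows are Bgn at chrX:73483351-73483650 (plus strand), Sparc at chr11:55420031-55420330 (minus strand), Fbln5 at chr12:101819070-101819369 (minus strand) and Ltbp3 at chr19:5740650-5740949 (plus strand), each printed 5′ to 3′ on the strand of the gene. Capitals mark GC boxes (GGGCGG, here as its reverse complement) in Bgn and Fbln5 and an AP-1 site (TGANTCA) in Ltbp3.
Bgn: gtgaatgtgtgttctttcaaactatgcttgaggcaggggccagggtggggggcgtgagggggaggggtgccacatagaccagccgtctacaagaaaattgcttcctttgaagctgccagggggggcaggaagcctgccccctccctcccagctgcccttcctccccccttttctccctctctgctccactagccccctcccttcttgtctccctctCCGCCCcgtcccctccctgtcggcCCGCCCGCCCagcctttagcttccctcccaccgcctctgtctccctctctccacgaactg
Sparc: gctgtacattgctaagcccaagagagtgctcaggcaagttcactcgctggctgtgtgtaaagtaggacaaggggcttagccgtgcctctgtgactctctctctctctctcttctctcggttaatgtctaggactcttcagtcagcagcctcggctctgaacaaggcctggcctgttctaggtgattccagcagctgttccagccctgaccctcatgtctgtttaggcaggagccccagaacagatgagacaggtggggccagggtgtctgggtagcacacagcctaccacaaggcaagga
Fbln5: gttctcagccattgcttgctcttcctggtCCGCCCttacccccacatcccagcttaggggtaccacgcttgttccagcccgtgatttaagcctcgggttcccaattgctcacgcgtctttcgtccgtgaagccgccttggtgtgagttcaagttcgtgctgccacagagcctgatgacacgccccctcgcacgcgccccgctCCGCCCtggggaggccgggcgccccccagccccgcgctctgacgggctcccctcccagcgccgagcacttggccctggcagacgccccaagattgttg
Ltbp3: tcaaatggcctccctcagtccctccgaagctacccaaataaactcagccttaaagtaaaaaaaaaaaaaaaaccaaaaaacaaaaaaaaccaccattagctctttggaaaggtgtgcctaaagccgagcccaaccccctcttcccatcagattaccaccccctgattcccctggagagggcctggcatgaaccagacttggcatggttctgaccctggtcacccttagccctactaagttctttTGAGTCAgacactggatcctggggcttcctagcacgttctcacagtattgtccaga

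Searched on both strands, the Bgn window held 3 GC boxes, a pair of which overlap, the Fbln5 window held 2, and the Ltbp3 window held 1 AP-1 site just before the gene start. The Sparc window held none of the 4 motifs searched. The GC box stood in 35.7% of the 32851 windows of all genes and in 23 of the 40 windows of members. The AP-1 site stood in 7.81% of all windows and in 4 of the members' windows, a TATA box (TATAAA) in 13.6% and 7, and a TEAD site (GGAATG) in 14.7% and 3. Of the 7 windows of called genes, 2 held at least 1 GC box, 1 held the AP-1 site and 0 held either of the other motifs.

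Of the 8 proteoglycans 7 were tested, of which 3 rose and 0 fell, and the median log2 fold change was 0.61. As background for the counts in this and the following role groups, 2.32% of all genes were called higher and 1.37% lower. Bgn encodes biglycan, a small leucine-rich proteoglycan that binds collagen (ENSMUSG00000031375, mm10 chrX:73483602-73495933, plus strand). It was counted at 184, 176, 199 and 196 CPM in KO replicates 1 to 4 and at 132, 119, 137 and 130.4 CPM in WT replicates 1 to 4. The groups were well apart, with the lowest library labelled KO above the highest labelled WT, and Bgn rose 1.45-fold (95% interval 1.27 to 1.66, log2 fold change 0.54, SE 0.09, edgeR adjusted p = 0.00417), the smallest adjusted p of any member.

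Prelp encodes a leucine-rich repeat protein that anchors basement membranes to connective tissue (ENSMUSG00000041577, chr1:133910304-133921414, minus strand). Its level was 85.6, 66.4, 87.9 and 86.3 CPM in KO replicates 1 to 4, against 44.0, 45.3, 65.4 and 58.6 CPM in WT replicates 1 to 4. KO replicate 2 lay far below the other libraries labelled KO and only just above WT replicate 3. The rise was 1.53-fold (1.25 to 1.87, log2 fold change 0.61, SE 0.14, edgeR adjusted p = 0.025).

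Lum encodes lumican, which regulates the thickness of collagen fibrils (ENSMUSG00000036446, chr10:97565501-97572703, plus strand). Libraries labelled KO held 25.0, 24.0, 30.2 and 27.0 CPM of it and libraries labelled WT 19.2, 15.2, 19.5 and 11.2 CPM, with no overlap. Lum rose 1.62-fold (1.28 to 2.04, log2 fold change 0.70, SE 0.16, edgeR adjusted p = 0.0255). Prelp was not called without KO replicate 1, 3 or 4 or WT replicate 1 or 2 (adjusted p up to 0.088), and Lum was not called without KO replicate 1, 3 or 4 or WT replicate 2 (up to 0.0921).

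Dcn encodes decorin, the closest relative of biglycan and by length-corrected level (RPKM) the most abundant of these proteoglycans, at a mean of 114 RPKM beside 26.1 RPKM for Bgn. It had 262, 257, 242 and 266 CPM in KO replicates 1 to 4 and 240.2, 209.7, 196 and 221 CPM in WT replicates 1 to 4. The groups did not overlap, but KO replicate 3 and WT replicate 1 nearly met, and the change of 1.18-fold (1.03 to 1.36, log2 fold change 0.24, SE 0.09) was not called (edgeR adjusted p = 0.186). The ratio of Bgn to Dcn counts, chosen after the values were seen and given without a test, was 0.687 to 0.821 in the libraries labelled KO and 0.55 to 0.697 in those labelled WT, with an overlap that rests on WT replicate 3.

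Among the remaining proteoglycans, Fmod (fibromodulin) had a log2 fold change of 0.74 (SE 0.27, edgeR adjusted p = 0.158) with no overlap, and Ogn (osteoglycin) one of 0.32 (adjusted p = 0.497). Aspn, which encodes asporin, had the highest fold change of any tested member, with a log2 fold change of 1.67 (SE 0.70, edgeR adjusted p = 0.223). It rested on few reads, with 0.155 to 0.797 CPM in the libraries labelled KO and 0.0555 to 0.452 CPM in those labelled WT, and passed the count minimum in 3 libraries labelled KO and 1 labelled WT. Each of the other 38 tested members passed it in all 8 libraries. Vcan, the gene of the large proteoglycan versican, had too few reads to test, with 6, 13, 2 and 11 counts in KO replicates 1 to 4 and 2, 2, 4 and 0 counts in WT replicates 1 to 4.

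**Figure D2:**
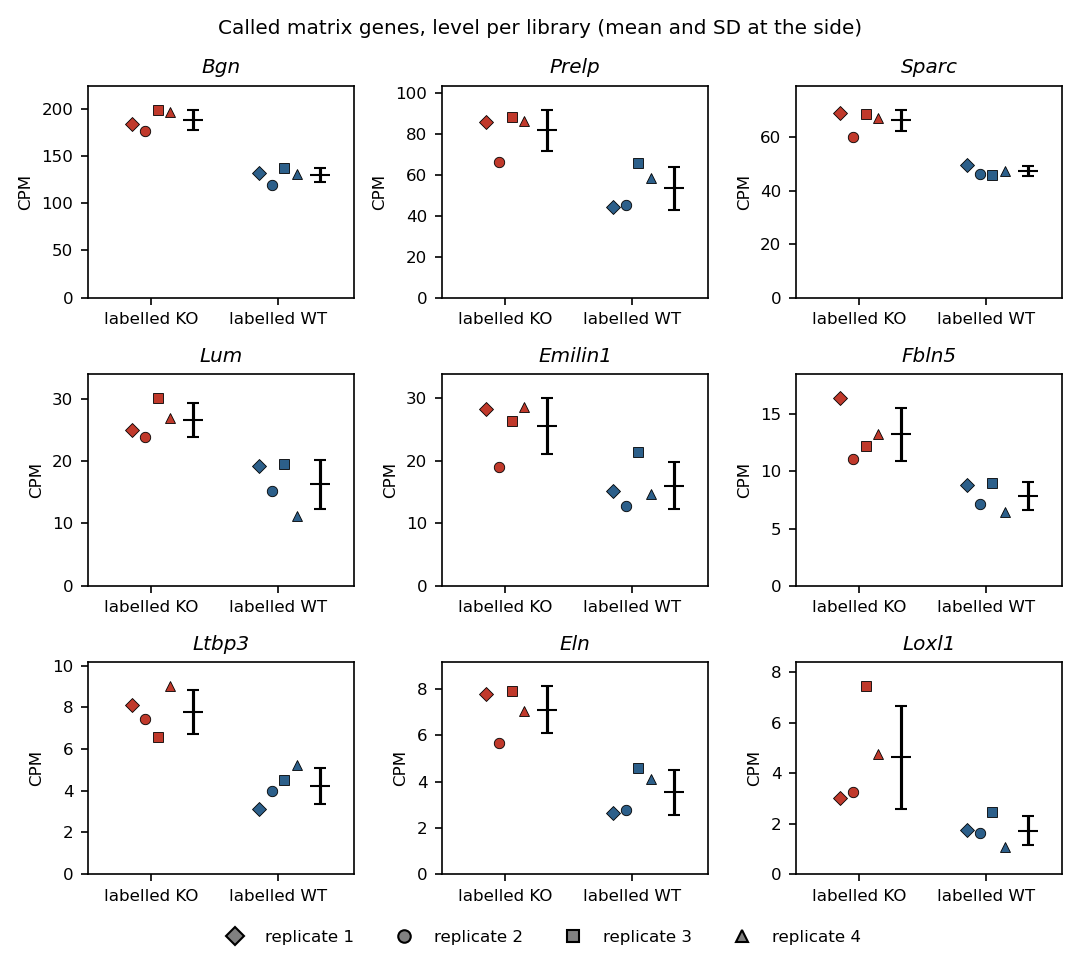
Level in CPM of the 9 called matrix genes in each library, with the mean and SD (n = 4 each) beside the points and libraries labelled KO on the left. KO replicate 2, the circle, is the lowest of its group for each gene except Ltbp3 and Loxl1, for which it is the second lowest, and Emilin1 is the gene whose groups overlap.

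Of the 12 elastic fibre and microfibril genes 10 were tested, of which 3 rose and 0 fell. Their median log2 fold change was 0.66, and each of the 10 was above 0. Eln encodes elastin, the rubber-like core of elastic fibres (ENSMUSG00000029675, chr5:134702593-134747323, minus strand). It was at 7.78, 5.69, 7.92 and 7.07 CPM in KO replicates 1 to 4 and at 2.66, 2.75, 4.59 and 4.10 CPM in WT replicates 1 to 4. No library labelled WT reached a library labelled KO, and Eln rose 2.02-fold (1.47 to 2.76, log2 fold change 1.01, SE 0.21, edgeR adjusted p = 0.0178).

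Fbln5 encodes fibulin-5, which binds elastin and the enzyme LOXL1 and is needed in mice for elastic fibre assembly (ENSMUSG00000021186, chr12:101746565-101819055, minus strand). Levels were 16.4, 11.0, 12.2 and 13.2 CPM in KO replicates 1 to 4 and 8.82, 7.11, 8.95 and 6.43 CPM in WT replicates 1 to 4. KO replicate 1 was the highest, and the groups did not overlap. Fbln5 rose 1.68-fold (1.32 to 2.13, log2 fold change 0.75, SE 0.16, edgeR adjusted p = 0.0195).

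Emilin1 encodes a glycoprotein at the interface of elastin and microfibrils (ENSMUSG00000029163, chr5:30913402-30921277, plus strand). It stood at 28.2, 18.9, 26.4 and 28.6 CPM in KO replicates 1 to 4 and at 15.2, 12.7, 21.4 and 14.6 CPM in WT replicates 1 to 4. KO replicate 2 lay below WT replicate 3, the 1 overlap among the called genes. The rise was 1.59-fold (1.24 to 2.05, log2 fold change 0.67, SE 0.17, edgeR adjusted p = 0.0453), and limma-voom did not call it. Eln was not called without KO replicate 1, 3 or 4 or WT replicate 1 or 2 (edgeR adjusted p up to 0.0683), Fbln5 without KO replicate 1 or 4 or WT replicate 2 or 4 (up to 0.0752), and Emilin1 without KO replicate 1, 3 or 4 or WT replicate 1, 2 or 4 (up to 0.137).

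Efemp1, the gene of fibulin-3, had the highest level per length of this group, 7.26 RPKM. It was at 16.2, 14.4, 18.8 and 18.4 CPM in KO replicates 1 to 4 and at 13.2, 13.3, 10.7 and 13.3 CPM in WT replicates 1 to 4, without overlap, and was not called (log2 fold change 0.43, SE 0.13, edgeR adjusted p = 0.0797). Fbn1, which encodes the microfibril protein fibrillin-1, had a log2 fold change of 0.54 (SE 0.15, edgeR adjusted p = 0.066). The fibulin genes Fbln1 and Fbln2 had 0.95 and 0.66 (adjusted p = 0.0826 and 0.103), and Mfap4, which encodes a microfibril-associated glycoprotein, had 1.09 (adjusted p = 0.0884). For these 4 genes too each library labelled KO lay above each library labelled WT. Emilin2 and Efemp2, the gene of fibulin-4, had 0.43 and 0.31 with overlapping groups (adjusted p = 0.42 and 0.542). Fbn2, the gene of fibrillin-2, was not tested, with 2, 14, 4 and 12 counts in KO replicates 1 to 4 and 0, 0, 2 and 2 in WT replicates 1 to 4. Mfap2, which encodes the microfibril protein MAGP-1, was not tested either, with 4, 14, 9 and 8 counts in KO replicates 1 to 4 and 9, 2, 6 and 2 counts in WT replicates 1 to 4.

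Loxl1 was the 1 gene called among the 7 crosslinking enzymes and procollagen C-proteinase enhancers, with 0 lower and a median log2 fold change of 0.48. Loxl1 encodes a lysyl oxidase that acts on elastin (ENSMUSG00000032334, chr9:58287723-58313212, minus strand). It had 3.02, 3.26, 7.46 and 4.77 CPM in KO replicates 1 to 4 and 1.75, 1.64, 2.45 and 1.05 CPM in WT replicates 1 to 4. KO replicate 3 was far above its group, and KO replicate 1 was closest to WT replicate 3. The rise of 2.64-fold was the largest of the called members and had the widest interval of the 9 (1.64 to 4.26, log2 fold change 1.40, SE 0.32, edgeR adjusted p = 0.0277). Loxl1 was not called without KO replicate 3 or 4 or WT replicate 1, 2 or 4 (adjusted p up to 0.103), nor by limma-voom.

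Lox encodes lysyl oxidase itself, which crosslinks collagen and elastin. It was at 1.39, 2.84, 2.18 and 1.69 CPM in KO replicates 1 to 4 and at 1.02, 1.64, 0.727 and 1.05 CPM in WT replicates 1 to 4. WT replicate 2 lay above KO replicate 1, and Lox was not called (log2 fold change 0.87, SE 0.34, edgeR adjusted p = 0.188). Pcolce enhances the removal of the C-propeptide of procollagen and had the highest level per length of the group, 1.79 RPKM. Libraries labelled KO held 7.90, 6.21, 8.62 and 8.61 CPM and libraries labelled WT 6.85, 6.17, 4.43 and 5.82 CPM, overlapping at KO replicate 2 (log2 fold change 0.43, SE 0.18, edgeR adjusted p = 0.211). The lysyl oxidase genes Loxl2, Loxl3 and Loxl4 had log2 fold changes of 0.36, 0.48 and 0.62 with overlapping groups (adjusted p = 0.422, 0.467 and 0.322), and the second enhancer gene, Pcolce2, had −0.25 (SE 0.31, adjusted p = 0.731).

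Of the 4 latent TGF-beta binding protein genes, Ltbp3 rose and 0 fell. The group's median log2 fold change was 0.34. Ltbp3 encodes a protein that binds the latent TGF-beta complex (ENSMUSG00000024940, chr19:5740904-5758532, plus strand). Its values were 8.09, 7.42, 6.57 and 9.02 CPM in KO replicates 1 to 4 and 3.13, 3.99, 4.53 and 5.21 CPM in WT replicates 1 to 4. The groups did not overlap, KO replicate 3 being nearest to WT replicate 4, and Ltbp3 rose 1.85-fold (1.40 to 2.45, log2 fold change 0.89, SE 0.19, edgeR adjusted p = 0.018). It was not called without KO replicate 1 or 4 or WT replicate 1 or 2 (adjusted p up to 0.0706).

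Ltbp4, the member of the family with the highest level per length (13.0 RPKM, beside 1.16 RPKM for Ltbp3), was at 92.1, 88.7, 82.5 and 87.6 CPM in KO replicates 1 to 4 and at 85.3, 86.3, 75.5 and 75.8 CPM in WT replicates 1 to 4. Those groups overlapped, and the interval of its fold change reached from 0.956 to 1.23 (log2 fold change 0.12, SE 0.09, edgeR adjusted p = 0.511). Ltbp3 counts were 0.0796 to 0.103 of Ltbp4 counts in the libraries labelled KO and 0.0367 to 0.0688 in those labelled WT, a ratio chosen after the values were seen and given without a test. Ltbp2, which is bound to microfibrils and does not carry latent TGF-beta, had 2.48, 2.08, 2.53 and 2.67 CPM in KO replicates 1 to 4 and 2.30, 2.47, 1.19 and 1.22 CPM in WT replicates 1 to 4. Only the lower pair of WT libraries was clearly apart from the libraries labelled KO (log2 fold change 0.44, SE 0.29, edgeR adjusted p = 0.476). Ltbp1 had a log2 fold change of 0.24 (adjusted p = 0.632).

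Of the 9 adhesive and matricellular genes, Sparc rose and 0 fell, and the group's median log2 fold change was 0.36. Sparc encodes osteonectin, a collagen-binding protein that modulates the contact of cells with matrix (ENSMUSG00000018593, chr11:55394500-55420080, minus strand). It was counted at 68.9, 60.2, 68.6 and 67.1 CPM in KO replicates 1 to 4 and at 49.7, 46.2, 45.9 and 47.4 CPM in WT replicates 1 to 4. Both groups were tight and well apart. Sparc rose 1.40-fold, the smallest rise of the 9 (1.24 to 1.58, log2 fold change 0.49, SE 0.08, edgeR adjusted p = 0.00549).

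Thbs2 encodes thrombospondin-2, an inhibitor of blood vessel growth that also affects collagen fibrils. It was at 8.63, 7.80, 8.59 and 8.27 CPM in KO replicates 1 to 4 and at 6.45, 5.34, 5.72 and 3.99 CPM in WT replicates 1 to 4. The groups did not overlap, and Thbs2 missed the threshold (log2 fold change 0.62, SE 0.17, edgeR adjusted p = 0.0522). It was called without WT replicate 3 (edgeR adjusted p = 0.0393), by DESeq2, with upper quartile scaling and without a low-count filter.

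Fn1 encodes fibronectin, which binds integrins and collagens, and was the most abundant member per length, at a mean of 203 RPKM. It was at 2916, 1914, 2799 and 2689.6 CPM in KO replicates 1 to 4 and at 2076, 2180.0, 2392 and 1974 CPM in WT replicates 1 to 4. KO replicate 2 was the lowest of all 8 libraries while the other libraries labelled KO were the highest, and Fn1 was not called (1.20-fold, 0.977 to 1.47, log2 fold change 0.26, SE 0.14, edgeR adjusted p = 0.337). Fn1 made up 64.4% to 71.9% of the summed CPM of the 42 members in the libraries labelled KO and 68.3% to 73.3% in those labelled WT. The sum of all 42 members was 2970 to 4063 CPM in the libraries labelled KO and 2891 to 3262 CPM in those labelled WT, with overlap. With Fn1 alone left out, the sums, which hold the called genes described here and were not tested, were apart. The other 41 members then summed to 1056 to 1152 CPM in the libraries labelled KO and 857 to 932 CPM in those labelled WT.

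Tnxb, the gene of tenascin-X, and Sparcl1, which encodes the SPARC-like protein hevin, had log2 fold changes of 0.36 and 0.34 without overlap (edgeR adjusted p = 0.0616 and 0.158). Thbs1 encodes thrombospondin-1, which can activate latent TGF-beta, and had 0.53 (adjusted p = 0.339). Tnc, the gene of the injury-associated glycoprotein tenascin-C, and Thbs3 had 0.72 and 0.28 (adjusted p = 0.384 and 0.694), the groups of all 3 overlapping. Postn, which encodes periostin, a matricellular protein of healing and fibrotic tissue, lay on the other side of 0. It was at 18.6, 19.2, 16.8 and 13.2 CPM in KO replicates 1 to 4 and at 26.1, 21.5, 16.0 and 17.5 CPM in WT replicates 1 to 4, with overlapping groups (log2 fold change −0.26, SE 0.16, edgeR adjusted p = 0.433).

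The last pair of members was not called. Mgp encodes matrix Gla protein, an inhibitor of calcification, and was at 1.39, 4.47, 2.33 and 2.74 CPM in KO replicates 1 to 4 and at 1.79, 1.64, 1.32 and 2.05 CPM in WT replicates 1 to 4. KO replicate 1 lay below 3 of the libraries labelled WT (log2 fold change 0.70, SE 0.33, edgeR adjusted p = 0.285). Ecm1 encodes the secreted glycoprotein extracellular matrix protein 1 and was the third most abundant member per length, at 72.4 RPKM. Levels of 197, 178, 157 and 182 CPM in KO replicates 1 to 4 and of 187, 174, 169.6 and 214 CPM in WT replicates 1 to 4 interleaved, and the interval of the fold change, 0.82 to 1.12, lay around 1 (log2 fold change −0.06, SE 0.11, edgeR adjusted p = 0.819).

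**Figure D3:**
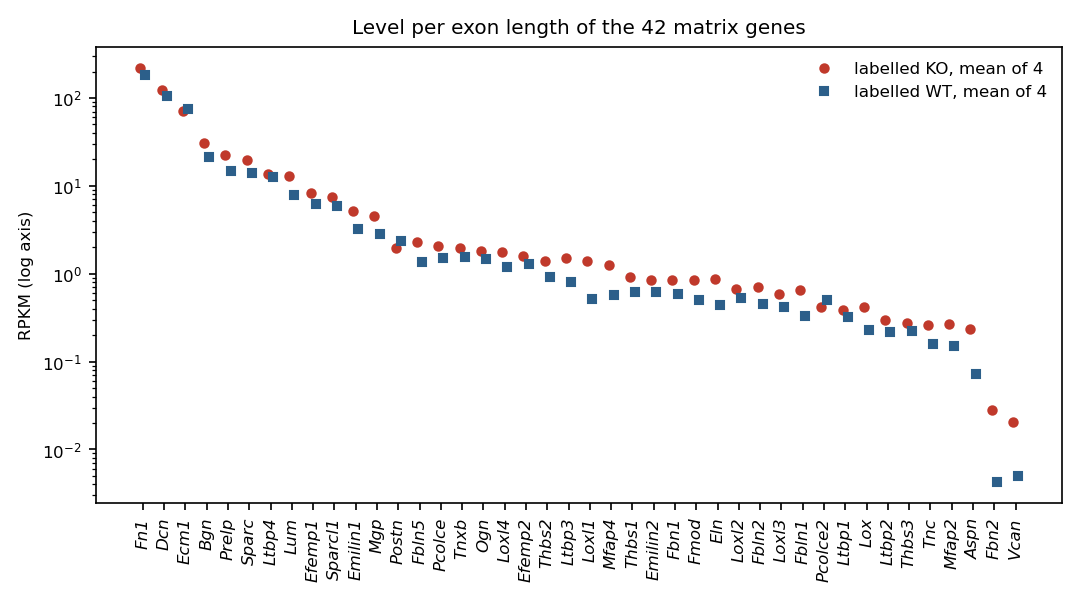
Mean level per exon length, as RPKM on a log axis, of the 42 matrix genes in the 4 libraries labelled KO (red circles) and the 4 labelled WT (blue squares), ordered by the mean of both. Fn1 (203 RPKM), Dcn (114) and Ecm1 (72.4) lead and none of them was called, whereas Bgn, Prelp and Sparc, next in order, were.

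Libraries differed in how far the members lay from the WT mean. KO replicates 1 to 4 lay above the highest library labelled WT for 29, 27, 30 and 32 of the 39 tested members. The matching share of all genes was not computed for single libraries, so these counts only describe the members. KO replicate 2 was the lowest of its group for 20 of them, and its median log2 deviation from the mean of the libraries labelled WT was 0.36, beside 0.46, 0.58 and 0.63 for KO replicates 1, 3 and 4. Over all tested genes the same median was between 0.0052 and 0.012 in these libraries. WT replicate 3 was the highest of its group for 13 members and the lowest for 14. Among the genes for which it was highest were Prelp, Eln, Emilin1 and Loxl1, and among those for which it was lowest were Dcn, Efemp1, Sparcl1 and Pcolce.

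**Figure D4:**
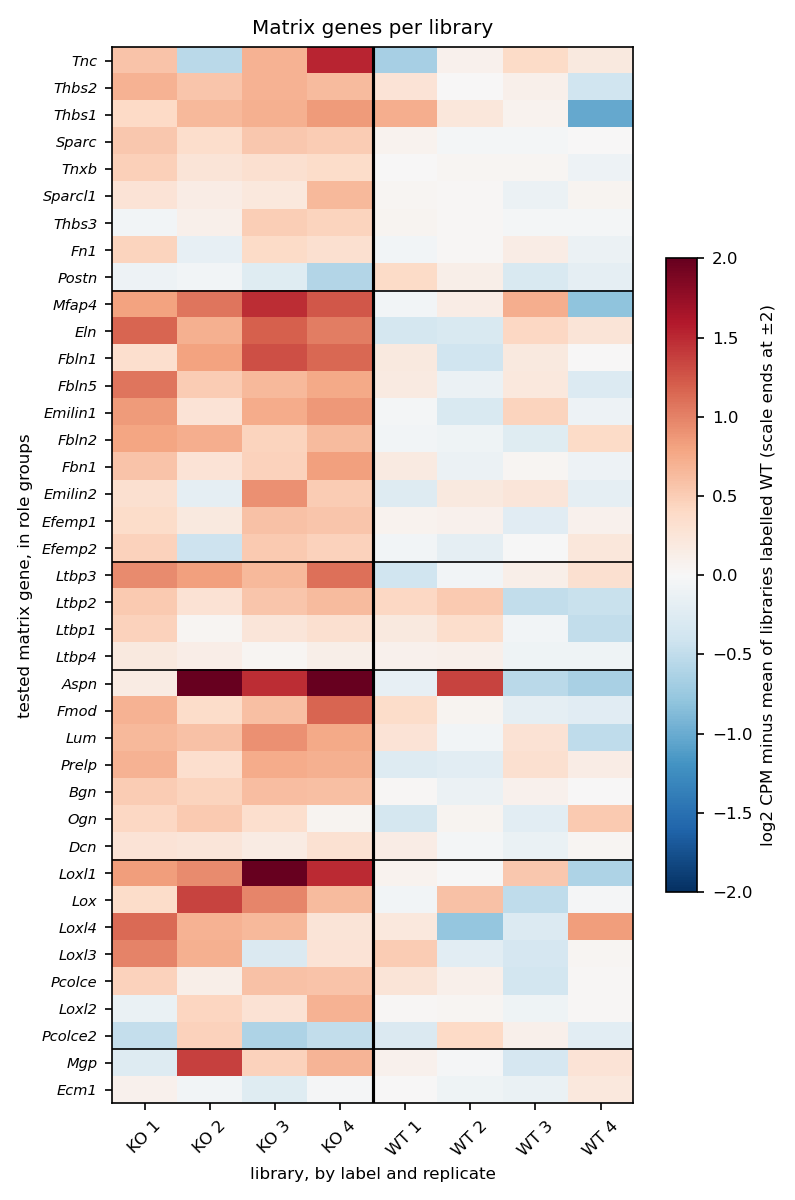
log2 CPM of the 39 tested matrix genes in each library minus the mean of the 4 libraries labelled WT, in role groups, with the libraries labelled KO to the left of the line. Red prevails on the left in each role group but the last. By the median over the 39 genes it is palest in KO replicate 2 (0.36), though not among the crosslinking genes. The rows of Postn, Pcolce2 and Ecm1 mostly do not share it, Pcolce2 being red in KO replicate 2.

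The collagens that these proteins coat and crosslink were read from the same fit. Of 12 interstitial collagen genes 4 (33.3%) rose and 0 fell, beside 2.32% and 1.37% of all genes. The median log2 fold change of the 12 was 0.59, beside −0.0046 over all genes. Col1a2, an alpha chain of type I collagen, was at 26.4 ± 3.58 CPM in the libraries labelled KO and 16.6 ± 1.70 CPM in those labelled WT (SD, n = 4 each, log2 fold change 0.67, SE 0.12, edgeR adjusted p = 0.0077). The partner chain Col1a1 averaged 14.4 ± 3.95 CPM in libraries labelled KO and 7.19 ± 1.13 CPM in libraries labelled WT (log2 fold change 1.0, SE 0.19, edgeR adjusted p = 0.0103), and Col6a1, a chain of beaded-filament type VI collagen, 16.4 ± 2.17 CPM (KO) and 11.0 ± 0.921 CPM (WT, log2 fold change 0.57, edgeR adjusted p = 0.025). The 4th was Col3a1 (log2 fold change 0.92, edgeR adjusted p = 0.0313), named after its values were seen. The count of collagens that rose was 2 without KO replicate 3 or 4 or WT replicate 1 or 2, and 0 were lower at an unadjusted p under 0.05 or by DESeq2 or limma-voom.

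Among 20 tested of 22 genes for the folding, modification and propeptide removal of collagen, 2 (10%) rose and 0 fell, beside 2.32% and 1.37% of all genes. The median log2 fold change of the 20 was 0.34. Adamts2, which removes the N-propeptide of procollagen, was at 11.1 ± 3.26 CPM in the libraries labelled KO and 6.43 ± 0.770 CPM in those labelled WT (log2 fold change 0.78, SE 0.19, edgeR adjusted p = 0.0368). Serpinh1, the collagen chaperone HSP47, was at 15.2 ± 3.61 CPM in KO and 9.44 ± 1.54 CPM in WT libraries, with KO replicate 1 below WT replicate 3 (log2 fold change 0.68, SE 0.18, edgeR adjusted p = 0.048). The count was 0 without KO replicate 3 or 4 or WT replicate 1, 2 or 4 and by limma-voom. It was 1 when KO replicate 1 or 2 was left out and 3 when WT replicate 3 was. At an unadjusted p under 0.05 6 of the 20 genes were higher, beside 9.2% of all genes. At that p 1, P4hb, was lower (log2 fold change −0.30, SE 0.10, edgeR adjusted p = 0.141), and the share of all genes lower was not computed. P4hb was at 1086 ± 90.6 CPM in KO and 1333 ± 55.6 CPM in WT libraries, without overlap. Largely through its level, the 22 genes summed to 1521 to 1799 CPM in KO and 1812 to 1914 CPM in WT libraries, lower without overlap. DESeq2 called 1 gene of the list lower and limma-voom 0.

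Of 19 tested of 20 receptors for matrix proteins 5 (26.3%) rose and 0 fell, beside 2.32% and 1.37% of all genes. The median log2 fold change of the 19 was 0.18. Itgb6, the beta subunit of an epithelial integrin that binds fibronectin and activates latent TGF-beta, was at 1.51, 1.77, 1.01 and 0.865 CPM in KO replicates 1 to 4 and at 0.292, 0.0822, 0.033 and 0.0555 CPM in WT replicates 1 to 4. WT counts were 8, 2, 1 and 1, so that 4 libraries labelled KO and 0 labelled WT passed the count minimum, and Itgb6 entered the test only through the group in which it is high. Its call is therefore no support for the list, and the other called receptors number 4. Itgb8, another beta subunit that binds latent TGF-beta, was at 6.52 ± 1.85 CPM in the libraries labelled KO and 1.89 ± 1.02 CPM in those labelled WT (log2 fold change 1.76, edgeR adjusted p = 0.0181), and Itga3, an integrin subunit for laminin, at 11.2 ± 2.26 CPM in KO and 6.21 ± 1.21 CPM in WT libraries (log2 fold change 0.85, edgeR adjusted p = 0.0179). The collagen receptor genes Ddr1 and Ddr2, named after their values were seen, rose with 1.40 and 0.51 (edgeR adjusted p = 0.0293 and 0.0467). With Itgb6 included, the count was 1 without KO replicate 3 or 4, 2 without WT replicate 2 or 4 and 3 without KO replicate 1, and 0 were lower at an unadjusted p under 0.05 or by DESeq2 or limma-voom.

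Of 14 TGF-beta ligands, receptors and matrix-linked targets 2 (14.3%) rose and 0 fell, beside 2.32% and 1.37% of all genes. The median log2 fold change of the 14 was 0.21. Tgfbi, a secreted adhesion protein induced by TGF-beta, was at 69.8 ± 6.21 CPM in the libraries labelled KO and 50.7 ± 4.32 CPM in those labelled WT (log2 fold change 0.46, SE 0.10, edgeR adjusted p = 0.0168). Pdgfb, a growth factor for stellate cells, was at 3.72 ± 0.385 CPM in KO and 2.07 ± 0.169 CPM in WT libraries (log2 fold change 0.84, SE 0.21, edgeR adjusted p = 0.0402). The count was 0 without KO replicate 3 or 4 or WT replicate 2. It was 1 when KO replicate 1 or 2 or WT replicate 1 or 4 was left out, and 1 gene fell without WT replicate 3. At an unadjusted p under 0.05 4 of the 14 genes were higher, beside 9.2% of all genes, and 2 lower, the receptor genes Tgfbr1 and Tgfbr2. Their log2 fold changes were −0.52 and −0.35, with overlapping groups (edgeR adjusted p = 0.0845 and 0.221). Within the 4-digit series the log2 differences of Tgfbr1 and Tgfbr2 were −0.78 and −0.48. Within the series from 98 to 100, with 1 library labelled WT, they were 0.07 and 0.04. In 4 of the 14 genes each library labelled KO lay above each labelled WT, beside 6.19% of all genes. In 1, Ccn1, each lay below (log2 fold change −0.24, edgeR adjusted p = 0.292). The matching shares of all genes for the lower direction were not computed. DESeq2 called 1 gene of the list lower and limma-voom 0.

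Marker genes of cell types were summed per library beside these results. As background for their counts, 2.32% of all genes were called higher and 1.37% lower, and 9.2% were higher at an unadjusted p under 0.05. The labelled tissue is liver, and 10 hepatocyte markers summed to 121300 to 145702 CPM in the libraries labelled KO and 134535 to 148648 CPM in those labelled WT, with 0 called. Markers of bile duct cells differed most: the 12 genes summed to 194 to 298 CPM in the libraries labelled KO and 70.0 to 93.6 CPM in those labelled WT, and 9 of 11 tested rose (6 without KO replicate 4 or WT replicate 1 or 2). The 12 stellate cell markers summed to 309 to 378 CPM in the libraries labelled KO and 278 to 296 CPM in those labelled WT without overlap, and 1, the globin gene Cygb, rose (12.02 ± 1.72 CPM in KO and 6.49 ± 1.22 CPM in WT libraries, edgeR adjusted p = 0.00908). DESeq2 called 4 stellate cell markers higher and limma-voom 1. At an unadjusted p under 0.05 6 of the 12 were higher and 0 lower. Each of the 12 had a log2 fold change above 0, against 49.2% of all genes, with a median of 0.30 and a range from 0.0001 (Vipr1) to 0.89 (Cygb). Lrat, Hand2 and Ngfr had 0.16, 0.07 and 0.06 with overlapping groups (edgeR adjusted p = 0.75, 0.875 and 0.947).

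The 8 portal fibroblast markers summed to 17.4 to 22.8 CPM in the libraries labelled KO and 10.3 to 18.6 CPM in those labelled WT, with 0 of 4 tested called (1, Dpt, without WT replicate 3). Mfap5 of that list was at 0 counts in each library labelled KO and at 1, 1, 0 and 0 counts in WT replicates 1 to 4, and Gli1, Pi16 and Clec3b had too few counts to test. The 6 smooth muscle markers summed to 124 to 171 CPM in KO and 84.8 to 151 CPM in WT libraries (0 of 4 tested called, and 1, Mylk, without WT replicate 3), and the mesothelial markers, 5 with a row, to 5.20 to 8.98 CPM in KO and 2.75 to 4.77 CPM in WT libraries, with Gpm6a higher (not without KO replicate 1, 3 or 4 or WT replicate 2 or 4). Endothelial markers summed to 479 to 527 CPM in KO and 432 to 510 CPM in WT libraries. The macrophage sum was 359 to 465 CPM in KO and 341 to 433 CPM in WT libraries, and the lymphocyte sum 18.8 to 24.5 CPM in KO and 19.0 to 28.1 CPM in WT libraries, with 0 called in each list. At an unadjusted p under 0.05, 1 portal fibroblast, 2 smooth muscle, 2 endothelial and 2 macrophage markers were higher, 1 hepatocyte marker was lower and 0 lymphocyte markers differed. The share of all genes lower at that p was not computed. Of these markers DESeq2 called the hepatocyte and the portal fibroblast marker (Apob lower and Dpt higher) and limma-voom Dpt. The part of these cell types in the levels of the matrix genes was not tested.

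**Figure D5:**
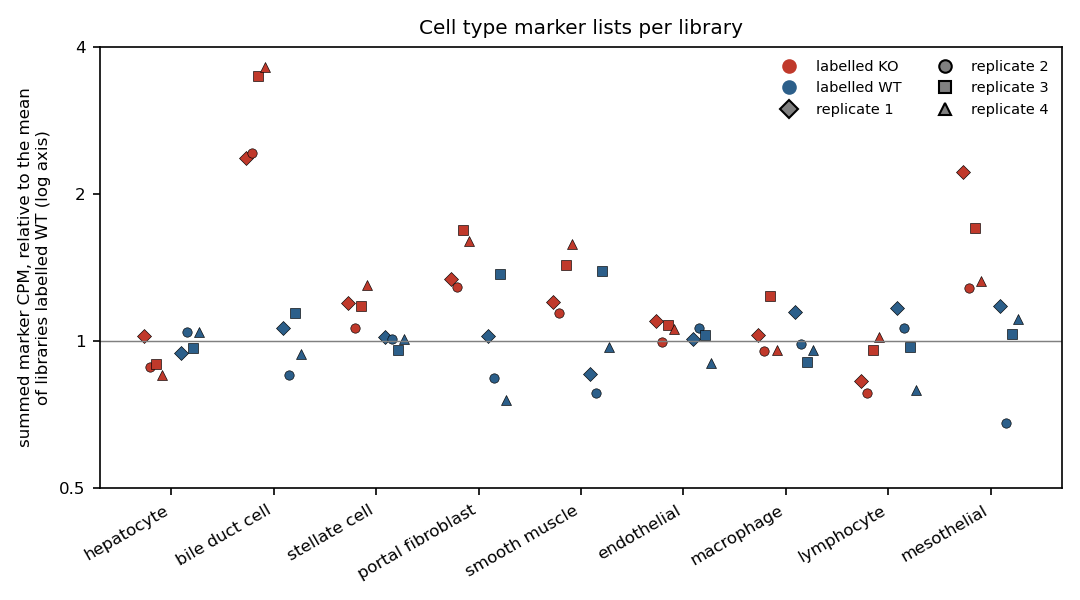
Summed CPM of each cell type marker list in each library, relative to the mean of the 4 libraries labelled WT (log axis), with libraries labelled KO left of those labelled WT. The bile duct, stellate cell and mesothelial lists have no overlap between the groups, and WT replicate 3, the square, reaches into the range of the libraries labelled KO for the portal fibroblast and smooth muscle lists.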

How the data were processed

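mRNA-enriched, strand-specific libraries (NEBNext Ultra Directional) were made from frozen liver, per the labels' protocols. Per the submitters' processing notes, the authors used bcl2fastq 2.19.1, GSNAP and featureCounts 1.5.1 on mm10 (GRCm38). Raw read counts for each gene were deposited, counted by the authors on Ensembl 81 with strand setting 2, per the file headers, and with no option for reads that overlap several genes. Exons of Pcolce (2.93% of bases), Ecm1 (2.50%) and Loxl2 (0.13%) are shared with another gene on the same strand.

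The comparison used edgeR 4.0.16 in R 4.3.3 (filterByExpr with a minimum count of 10, TMM scaling, robust quasi-likelihood fit), with Benjamini-Hochberg adjustment over 14645 genes, and was tested on simulated data. SEs and unadjusted 95% intervals came from the quasi-likelihood F statistic. CPM is scaled by TMM, log2 CPM used a prior count of 2, and RPKM divides CPM by exon length. Called members had 19 to 5221 counts per library.

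Full values are given for each called member, for members of smallest p where a role group had fewer than 2 calls, and for the most abundant member of each group, and for up to 3 called genes of each other list in order of p. Members and lists were chosen with earlier results of these data known. Alternatives were RLE and upper quartile scaling, DESeq2 1.42.0, limma-voom (limma 3.58.1), other filters, a replicate block, the number series as covariate, the 4-digit series alone and each library left out.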

Additional observations from a re-analysis of the deposited data

Results flagged for a closer look

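In 6 of the 78 sets of 4 values (39 tested members in either genotype), 1 library lay far from the rest of its group by Dixon's criterion, which chance alone exceeds in about 1 in 20 sets. Prelp was at 66.4 CPM in KO replicate 2, below the other libraries labelled KO, and Efemp2 at 2.53 CPM and Pcolce2 at 3.12 CPM in the same library were the lowest and the highest of their group. Among the libraries labelled WT, Efemp1 at 10.7 CPM and Loxl2 at 2.68 CPM were low in WT replicate 3, and Aspn at 0.452 CPM was high in WT replicate 2. Without KO replicate 2 the called members were the same 9. Of the flagged genes only Prelp was called.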

How the results depend on the processing

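Over the 8 fits that each left out 1 library, the genes higher in the libraries labelled KO numbered 151 to 710 and those lower 71 to 534. Members called higher numbered 2 to 12 and members called lower 0, with a median log2 fold change of 0.46 to 0.54. Interstitial collagens called higher numbered 2 to 5, folding enzymes 0 to 3, receptors 1 to 7 and TGF-beta genes 0 to 2, and TGF-beta genes called lower 0 to 1. DESeq2 called 613 genes higher and 495 lower, 16 members higher, 7 collagens higher, 1 folding enzyme lower and 1 TGF-beta gene lower. Limma-voom called 7 members, without Emilin1 and Loxl1, and 0 folding enzymes. Without a low-count filter 328 genes and 1 TGF-beta gene were lower, and with a CPM of at least 1 in at least 4 libraries 1 folding enzyme was higher, Aspn not being tested there. With the number series as covariate 308 genes were lower, and the 9 called members were the same. Among the animals with 4-digit numbers 215 genes and 5 members were higher (Bgn, Eln, Emilin1, Fbln5 and Prelp), with 2 collagens, 0 folding enzymes, 3 receptors and 1 TGF-beta gene higher, 1 TGF-beta gene lower and a members' median of 0.43. The replicate block kept the same 9 members, left 1 TGF-beta gene higher and changed no other count by over 1.5 times. Same-numbered libraries had correlations of 0.025, 0.025, 0.12 and −0.15 in their deviations from the group means. No member was called lower under any of these settings, and the sign turned only for Pcolce2, to 0.067 among the animals with 4-digit numbers, and Ecm1, which ran from −0.11 to 0.012 over the fits with 1 library left out and was above 0 without WT replicate 4. The cause of these shifts was not tested. Depth limits the members of few counts, Aspn and the 3 untested genes above all.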
